A study of Mus musculus with 9 samples.

Results

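Complement is a cascade of plasma proteins in which serine proteases are activated, convertase enzymes that contain parts of C4 or factor B form, and inhibitors limit the cascade. Most of these proteins in plasma come from the liver, but kidney tubule and interstitial cells and macrophages also transcribe some of them, and the C1q chains are typically macrophage products. The genes described here are 9 complement components with transcripts measured in mouse kidney, of 22180 genes in all. They are C1qa, C1qb and C1qc (the chains of C1q), C1ra and C1s1 (the proteases of the C1 complex), Serping1 (the C1 inhibitor), C4b (complement C4), Cfb (factor B) and Cfi (factor I). They were taken as a named list, which was chosen with earlier results of these data known. Each was read from the brightest row of the array that carries its symbol alone, and all 9 had such a row.

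Kidney RNA was measured on 9 whole-transcript arrays in 3 groups of 3 samples. In the norUDCA-fed CBDL group, mice received norursodeoxycholic acid (norUDCA, a side chain-shortened bile acid) in a 5-day prefeeding that preceded common bile duct ligation, and kidneys were taken at 3 weeks. The CBDL group was ligated for 3 weeks with no feeding in its label, and the sham group was sampled 3 weeks after a sham operation. The labels give no strain, age, sex or genotype, do not say whether norUDCA was continued after ligation, and include no norUDCA-fed sham group. They also do not say whether the samples of a group came from separate animals, so the spread behind each p-value may be technical. Arrays are named by their group and label number.

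Proximal tubule markers were bright on every array, with a mean over 10 markers of 11.88 to 11.94 in norUDCA-fed CBDL, 10.23 to 11.35 in CBDL and 12.23 to 12.3 in sham, in log2 signal. Array medians lay between 5.7 and 5.79. In a principal component analysis of all genes, sham_159 at -34.5 and CBDL_165 at -22.9 stood apart on the second component (13% of the variance), where no other array was below 3.4. On norUDCA_CBDL_172 Kdm5d, Eif2s3y and Uty, which are transcribed from the Y chromosome, were at 6.46, 7.64 and 7.66, below the lowest of the other arrays at 7.89, 8.49 and 9.15. The differences of the 9 genes, and of the other complement genes called, were therefore also computed without each array in turn.

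The C1q genes lie side by side on chromosome 4, in the order C1qb, C1qc, C1qa in the RefSeq annotation of GRCm38.p6. C1ra and C1s1 neighbour each other and their relatives C1rl, C1rb and C1s2 on chromosome 6, and C4b and Cfb both lie on chromosome 17. Upstream sequence from RefSeq (GRCm38.p6) was matched by symbol for 4 of the 9 genes. The 250 bases before the start site are shown for C1qb and C1qc, neighbours whose transcripts moved together, and for C1ra, whose transcript was called in no comparison; capitals mark the motif matches described after them.

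C1qb, chr4:136886201-136886450, minus strand: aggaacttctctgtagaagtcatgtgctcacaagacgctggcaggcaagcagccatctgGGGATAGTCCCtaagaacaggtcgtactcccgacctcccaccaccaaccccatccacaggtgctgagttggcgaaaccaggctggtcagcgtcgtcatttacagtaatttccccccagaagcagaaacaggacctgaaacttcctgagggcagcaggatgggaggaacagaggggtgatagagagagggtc
C1qc, chr4:136892915-136893164, minus strand: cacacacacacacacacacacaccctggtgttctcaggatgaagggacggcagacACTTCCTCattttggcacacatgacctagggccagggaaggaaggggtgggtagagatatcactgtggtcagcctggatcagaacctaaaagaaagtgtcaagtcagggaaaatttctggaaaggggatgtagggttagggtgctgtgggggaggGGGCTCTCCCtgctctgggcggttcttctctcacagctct
C1ra, chr6:124512371-124512620, plus strand: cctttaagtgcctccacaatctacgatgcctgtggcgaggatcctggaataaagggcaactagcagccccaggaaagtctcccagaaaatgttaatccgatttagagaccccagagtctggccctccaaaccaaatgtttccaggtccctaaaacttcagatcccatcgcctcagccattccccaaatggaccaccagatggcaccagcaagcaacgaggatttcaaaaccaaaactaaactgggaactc

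Motifs were searched on both strands. A loose form of the NF-kB motif was searched as GGGA and CC separated by any 4 bases. It matched in the C1qb window on both strands in overlapping positions from 191 to 181 bases before the start. It matched in the C1qc window from 40 to 31 bases before the start. The C1ra window held none of the motifs searched, which says only that these letters are not in that window. Of 32851 windows of the same length, 17.6% held such a match, as did 1 of the 2 annotated C1s1 windows. The PU.1 motif GAGGAAGT, added after the data were seen, matched in the C1qc window from 195 to 188 bases before the start and is held by 2.44% of windows. The STAT motif TTCNNNGAA (7.02% of windows) and the interferon-stimulated response element (GAAA, any 2 bases, GAAA, in 2.98% of windows) matched in none of these 3 windows. A match is a run of letters and does not show that a factor binds there.

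After ligation, 6 of the 9 genes rose and 0 fell in CBDL against sham: the chains of C1q, Serping1, C4b and Cfi. A gene is said to have risen or fallen where its adjusted p was under 0.05 in a limma fit of all 22180 genes, of which 21.8% were called in this comparison, 10.3% higher and 11.5% lower. The median difference of the 9 genes was 2.02 on the log2 scale and that of all genes was -0.06. For 8 of the 9 genes every CBDL array lay on one side of every sham array, against 35.6% of all genes. Because the list was chosen with earlier results known, shares of all genes stand beside its counts as a description, not a test. These 6 calls held under each of 15 alternative settings, which included leaving out each array.

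In norUDCA-fed CBDL, 4 of the 9 genes were lower than in CBDL and 0 were higher: the C1q chains and Serping1. In that comparison 6.8% of all genes were called, 3.2% lower and 3.61% higher. The median difference of the 9 genes was -0.46 and that of all genes was 0.00 to 2 decimals. The arrays of these groups did not overlap for 5 of the 9 genes, against 24.2% of all genes. Compared with sham, 6 of the 9 genes were higher in norUDCA-fed CBDL and 0 lower, with 3.18% of all genes called, 1.82% higher and 1.37% lower. These arrays did not overlap for 7 of the 9 genes, against 22.5% of all genes. The norUDCA-fed CBDL comparisons with CBDL and with sham each share arrays with the ligation comparison, and their values stand side by side here as a description.

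**Figure D1:**
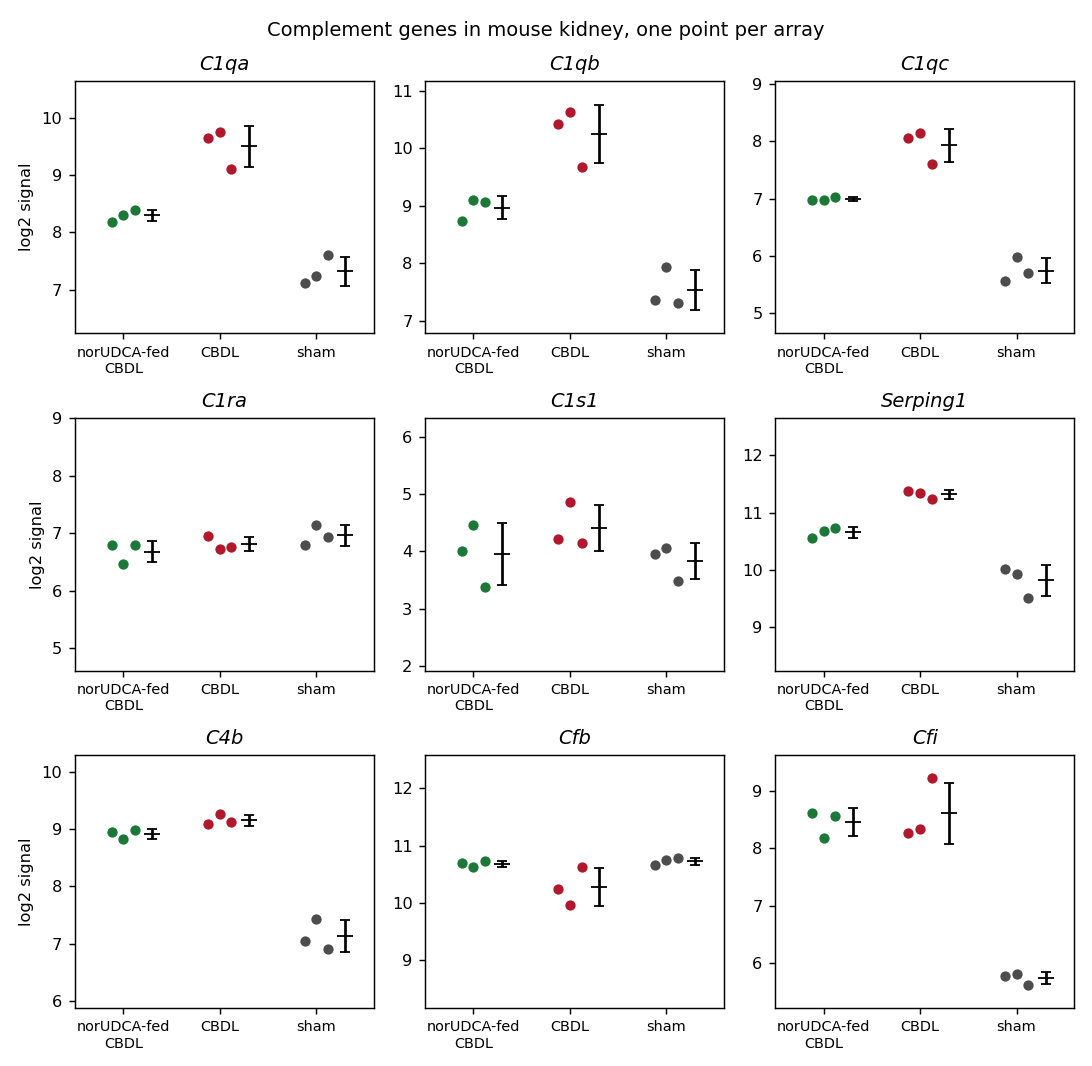
Log2 array signal of each of the 9 complement genes, with one point per array, grouped as norUDCA-fed CBDL, CBDL and sham; bars are the mean and SD of 3 arrays, and every panel spans the same log2 range. C1qa, C1qb, C1qc and Serping1 lie highest in CBDL, C4b and Cfi lie high in both ligated groups, and C1ra shows no called difference.

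C1qa, which encodes the A chain of C1q, had log2 signals of 8.19, 8.31 and 8.39 in norUDCA-fed CBDL, of 9.65, 9.76 and 9.10 in CBDL and of 7.12, 7.25 and 7.60 in sham. The groups did not overlap in any pairing. C1qa rose in CBDL by 2.18 against sham (SE 0.18, limma adjusted p = 5.99e-05), a 4.53-fold difference in signal. It was lower in norUDCA-fed CBDL than in CBDL by a difference of -1.21 (SE 0.18, limma adjusted p = 0.00883). It was higher than in sham by 0.97 (SE 0.18, limma adjusted p = 0.0225).

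C1qb, the B chain, had 8.74, 9.10 and 9.06 in norUDCA-fed CBDL, 10.42, 10.64 and 9.68 in CBDL and 7.36, 7.93 and 7.31 in sham. The order of groups was that of C1qa, again with no overlap. The difference of CBDL minus sham was 2.71 (SE 0.25, limma adjusted p = 8.96e-05), a 6.54-fold difference in signal. In norUDCA-fed CBDL, C1qb differed by -1.28 from CBDL (SE 0.25, limma adjusted p = 0.018) and by 1.43 from sham (SE 0.25, limma adjusted p = 0.016).

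C1qc, the C chain, had 6.97, 6.97 and 7.03 in norUDCA-fed CBDL, 8.05, 8.14 and 7.60 in CBDL and 5.56, 5.98 and 5.70 in sham. The norUDCA-fed CBDL arrays had an SD of 0.03 (n = 3) and lay between the other groups. C1qc rose in CBDL by 2.18 (SE 0.16, limma adjusted p = 3.45e-05). It differed in norUDCA-fed CBDL by -0.94 from CBDL (SE 0.16, limma adjusted p = 0.0115) and by 1.24 from sham (SE 0.16, limma adjusted p = 0.00455). Among the CBDL arrays, CBDL_170 was the lowest for all the chains and CBDL_165 the highest.

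The C1q chains moved with macrophage markers, and the fibroblast markers described below had the same order of groups. All 18 macrophage and myeloid markers rose in CBDL against sham, from Aif1 at 0.52 to Mrc1 at 3.16. Of the same 18, 13 fell in norUDCA-fed CBDL against CBDL and 11 were higher in norUDCA-fed CBDL than in sham. Their mean log2 signal was 7.46 to 7.57 in norUDCA-fed CBDL, 8.06 to 8.77 in CBDL and 6.57 to 6.77 in sham. The dimmest marker on the sham arrays was Cd163, at 4.43 to 5.33. In the CBDL group the marker mean, like C1q, was highest on CBDL_165 and lowest on CBDL_170. Many single markers departed from that order. Adgre1, Cx3cr1, Ctss, Laptm5, Fcer1g, Aif1, Ms4a7, Ptprc and Ly86 were highest on CBDL_164, with Ctss at 11.41 there and 11.16 on CBDL_165. Ccr2 had 7.27, 7.39 and 7.44 on CBDL_164, CBDL_165 and CBDL_170, and Ptprc and Ly86 were lowest on CBDL_165, at 7.91 and 8.43. Cd68, Lyz2, Itgam, Mrc1, Tyrobp, Mpeg1, Cd53 and Cd163 were highest on CBDL_165, as C1q was. With each gene centred over the 9 arrays, the mean of the C1q chains minus that of the macrophage markers was 0.01 to 0.10 in norUDCA-fed CBDL, 0.21 to 0.24 in CBDL and -0.39 to -0.22 in sham. The groups did not overlap in this difference, so C1q and the marker mean changed by unequal amounts. More macrophages and more RNA per macrophage cannot be told apart in these bulk samples, and the part of macrophage number in the C1q result was not tested.

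**Figure D2:**
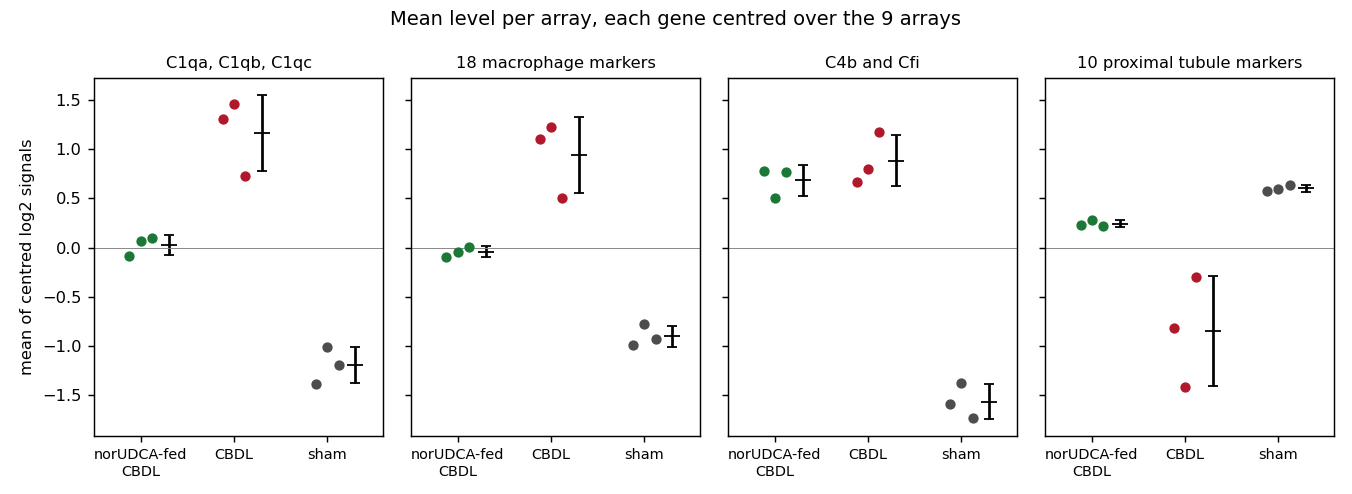
Mean level per array of the C1q chains, 18 macrophage markers, C4b with Cfi, and 10 proximal tubule markers, in log2 signal with each gene centred over the 9 arrays; points are arrays, bars are mean and SD of 3. The C1q chains lie at -0.09 to 0.10 in norUDCA-fed CBDL, 0.73 to 1.46 in CBDL and -1.38 to -1.01 in sham, while C4b with Cfi lies at 0.50 to 0.78 and 0.67 to 1.17 in the ligated groups and at -1.73 to -1.37 in sham.

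The transcripts of the proteases that C1q binds were not called in any comparison. C1ra had 6.79, 6.46 and 6.79 in norUDCA-fed CBDL, 6.95, 6.73 and 6.76 in CBDL and 6.80, 7.15 and 6.93 in sham. CBDL minus sham was -0.15, with a 95% interval of -0.44 to 0.15 (limma adjusted p = 0.489), so a rise of the size seen in C1q lies outside the interval. Its norUDCA-fed CBDL arrays lay below the sham arrays, at a difference of -0.28 (95% interval -0.58 to 0.02, limma adjusted p = 0.335).

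C1s1 was dim, at 4.01, 4.46 and 3.38 in norUDCA-fed CBDL, 4.21, 4.86 and 4.15 in CBDL and 3.95, 4.06 and 3.48 in sham. These signals lie below 5.2, the level under which the dimmest 33.3% of genes fall, and signal above background is not shown there. The CBDL arrays were above the sham arrays, by 0.58 (95% interval -0.05 to 1.21, limma adjusted p = 0.188). A second row for C1s1 gave 3.79 to 4.15 over the 9 arrays. Whether rows of C1ra and C1s1 also read the related C1rb and C1s2, whose own rows were not called in any comparison, was not tested. C1s2 lay at 2.97 to 4.15 over the 9 arrays, also below 5.2, where signal above background is not shown.

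C1rl, the neighbouring C1r-like protease gene, had 8.28, 8.66 and 8.58 in norUDCA-fed CBDL, 7.46, 7.24 and 8.11 in CBDL and 8.92, 9.12 and 8.90 in sham. It fell by 1.38 in CBDL (SE 0.20, limma adjusted p = 0.00107) and was higher in norUDCA-fed CBDL than in CBDL by 0.90 (SE 0.20, limma adjusted p = 0.0303). The call against CBDL ended in 7 of 15 alternatives, with an adjusted p of up to 0.121. C1rl had the same order of groups and of CBDL arrays as the proximal tubule marker mean, whose part in its values was not tested.

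Serping1, the inhibitor that removes C1ra and C1s1 proteins from the C1 complex, had 10.55, 10.68 and 10.73 in norUDCA-fed CBDL, 11.38, 11.34 and 11.23 in CBDL and 10.01, 9.93 and 9.51 in sham. The groups followed the order of the C1q chains without overlap. The difference was 1.50 in CBDL against sham (SE 0.13, limma adjusted p = 7.74e-05), a 2.83-fold difference in signal. In norUDCA-fed CBDL, Serping1 differed by -0.66 from CBDL (SE 0.13, limma adjusted p = 0.0197) and by 0.84 from sham (SE 0.13, limma adjusted p = 0.0117). Within CBDL its arrays spanned less than those of C1q, with an SD of 0.07 against 0.35, 0.51 and 0.29 for C1qa, C1qb and C1qc.

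C4b, the C4 gene whose product is cut by the C1 proteases and enters the classical C3 convertase, stayed high in both ligated groups. It had 8.94, 8.82 and 8.98 in norUDCA-fed CBDL, 9.08, 9.26 and 9.12 in CBDL and 7.05, 7.44 and 6.91 in sham. C4b rose in CBDL by 2.02 (SE 0.14, limma adjusted p = 2.88e-05) and was higher in norUDCA-fed CBDL than in sham by 1.78 (SE 0.14, limma adjusted p = 0.000566). Between norUDCA-fed CBDL and CBDL the difference was -0.24, with a 95% interval of -0.54 to 0.07 (limma adjusted p = 0.421), although the arrays did not overlap. C4a, a near copy of C4b that lies close to it, had signals of 3.25 to 4.22 over the 9 arrays and no call. These signals lie below 5.2, where signal above background is not shown. Whether the C4b row also reads C4a transcripts was not tested.

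Cfi, which encodes the protease that cleaves C3b and C4b with the help of cofactors, had the largest ligation difference of the 9 genes. It had 8.62, 8.17 and 8.56 in norUDCA-fed CBDL, 8.26, 8.34 and 9.22 in CBDL and 5.78, 5.81 and 5.62 in sham. Both ligated groups lay above sham and overlapped each other. Cfi rose in CBDL by 2.87 (SE 0.23, limma adjusted p = 5.26e-05), a 7.31-fold difference in signal, and was higher in norUDCA-fed CBDL than in sham by 2.72 (SE 0.23, limma adjusted p = 0.000769). Between norUDCA-fed CBDL and CBDL it differed by -0.15 (95% interval -0.67 to 0.37, limma adjusted p = 0.822). The highest Cfi array was CBDL_170, which was the lowest CBDL array for C1q.

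C1qc was also set against C4b within each array. C1qc minus C4b was -1.97 to -1.85 in norUDCA-fed CBDL, -1.52 to -1.03 in CBDL and -1.49 to -1.21 in sham. The norUDCA-fed CBDL arrays lay below all others, while CBDL and sham overlapped. C1qc minus Cfi was -1.65, -1.20 and -1.53 in norUDCA-fed CBDL, -0.21, -0.20 and -1.62 in CBDL and -0.22, 0.17 and 0.08 in sham. For that pair CBDL_170 lay within the norUDCA-fed CBDL range, so those groups overlapped. The pairs were chosen after their values were seen, and 3 arrays against 3 cannot give an exact two-sided permutation p below 0.1, so this is given as a description.

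Cfb, factor B, the catalytic subunit of the alternative pathway C3 convertase, had 10.69, 10.62 and 10.73 in norUDCA-fed CBDL, 10.25, 9.97 and 10.62 in CBDL and 10.66, 10.75 and 10.78 in sham. CBDL was below sham on all arrays, at a difference of -0.44 (95% interval -0.78 to -0.11), but did not pass (limma adjusted p = 0.0592). Without CBDL_170 the difference was -0.61 and passed (limma adjusted p = 0.00589), and it also passed with an intensity trend in the variance (limma adjusted p = 0.0372) and with the dimmest 33.3% of genes left out (limma adjusted p = 0.0373). NorUDCA-fed CBDL differed from CBDL by 0.40 (95% interval 0.06 to 0.73, limma adjusted p = 0.166), which passed without CBDL_170 (0.57, limma adjusted p = 0.0193), and from sham by -0.05 (95% interval -0.38 to 0.28, limma adjusted p = 0.905). Proximal tubule markers had the same order of groups and of CBDL arrays: all 10 fell in CBDL against sham, 8 of 10 were higher in norUDCA-fed CBDL than in CBDL, and CBDL_170 was the highest CBDL array. Their part in the Cfb values was not tested. C2, the gene beside Cfb that encodes its classical pathway counterpart, had 7.93, 7.90 and 8.21 in norUDCA-fed CBDL, 8.13, 8.26 and 8.39 in CBDL and 7.88, 8.06 and 7.96 in sham, and was not called in any comparison.

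**Figure D3:**
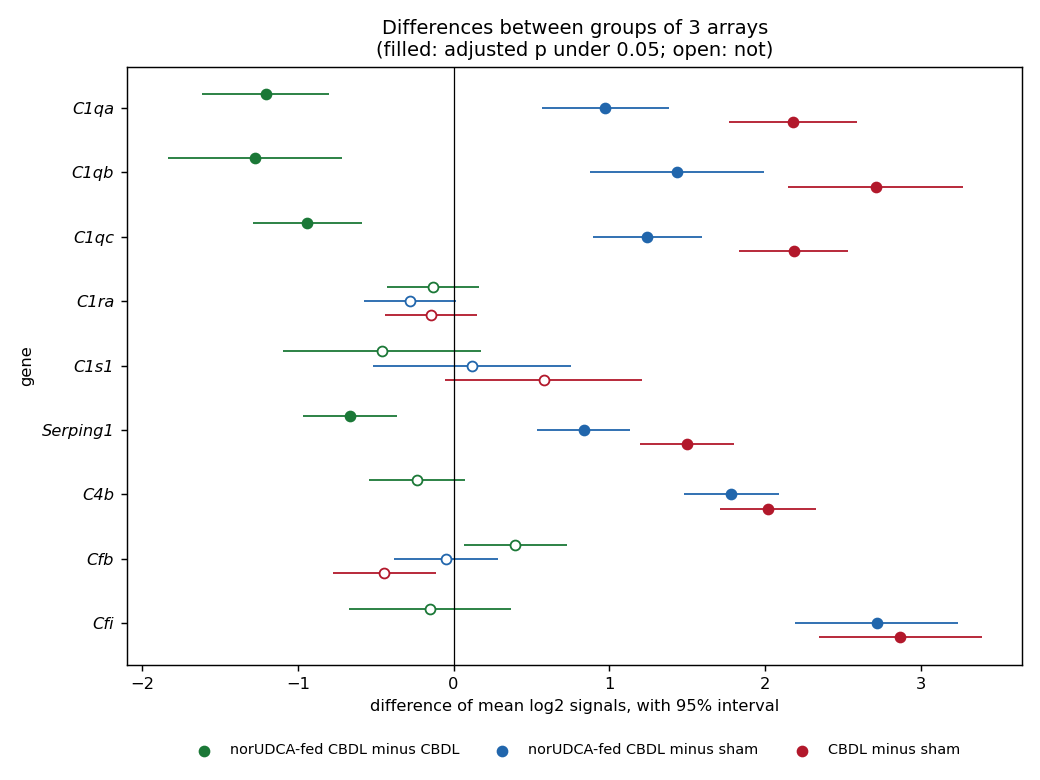
Difference of mean log2 signals with its 95% interval for each gene in norUDCA-fed CBDL minus CBDL, norUDCA-fed CBDL minus sham and CBDL minus sham (3 arrays a group); filled points passed an adjusted p of 0.05. C1qa, C1qb, C1qc and Serping1 have filled points left of 0 for norUDCA-fed CBDL minus CBDL, and the intervals of C4b and Cfi there include 0.

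Several calls in norUDCA-fed CBDL against CBDL were lost when 1 array of those groups was left out. C1qa kept its call in all 15 alternatives. C1qb and Serping1 lost theirs without CBDL_164, CBDL_165, norUDCA_CBDL_172, norUDCA_CBDL_175 or norUDCA_CBDL_179, with limma adjusted p of 0.0547 to 0.0754 for C1qb and 0.0551 to 0.0769 for Serping1. In these fits C1qb differed by -1.08 to -1.34 and Serping1 by -0.61 to -0.70. The share of all genes called was also lower there, at 1.25% to 3.13%, against 6.8% with all arrays. C1qc lost its call without CBDL_164 (limma adjusted p = 0.0518) or norUDCA_CBDL_175 (limma adjusted p = 0.0546). Against sham, C1qa lost its call without sham_158, sham_159 or any 1 norUDCA-fed CBDL array (limma adjusted p 0.0695 to 0.107). C1qb lost it without sham_158, sham_160, norUDCA_CBDL_175 or norUDCA_CBDL_179 (limma adjusted p 0.0558 to 0.0827), and Serping1 without norUDCA_CBDL_179 (limma adjusted p = 0.067). No member's called difference changed sign in any alternative.

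A list of other complement genes held 45 with a row of their own, and C3, Cfd and Masp2 were not analysed here. In CBDL against sham 13 of the 45 rose and 7 fell, with a median difference of 0.09. In norUDCA-fed CBDL, 4 were higher and 8 lower than in CBDL (median -0.10), and 7 were higher and 1 lower than in sham (median 0.00 to 2 decimals). These stand beside the same shares of all genes given above as a description, because this list too was chosen with earlier results known.

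Of the receptors for complement fragments, C3ar1, C5ar1 and the integrin chains Itgam, Itgb2 and Itgax rose in CBDL, Cr2 fell, and C5ar2 and Vsig4 were not called in any comparison. C3ar1, the receptor for the C3a fragment, had 7.63, 7.63 and 7.65 in norUDCA-fed CBDL, 8.86, 8.82 and 8.12 in CBDL and 6.35, 6.50 and 6.05 in sham. It rose in CBDL by 2.30 (SE 0.19, limma adjusted p = 6.04e-05) and differed in norUDCA-fed CBDL by -0.96 from CBDL (SE 0.19, limma adjusted p = 0.0196). C5ar1, the receptor for C5a, rose by 1.38 in CBDL and differed by -0.74 in norUDCA-fed CBDL against CBDL (limma adjusted p = 0.0231). Itgam, Itgb2 and Itgax, chains of the integrin complement receptors of myeloid cells, rose by 2.46, 1.56 and 1.29 in CBDL, and differed by -1.02, -1.04 and -0.95 in norUDCA-fed CBDL against CBDL. Itgam is also one of the 18 macrophage markers. Cr2, the receptor for C3d, had 5.25, 5.16 and 5.14 in norUDCA-fed CBDL, 4.95, 4.62 and 4.72 in CBDL and 5.34, 5.40 and 5.43 in sham. Its groups did not overlap, with CBDL lowest. Cr2 lies among the dimmest 33.3% of genes, where signal above background is not shown. Cr2 differed by -0.63 in CBDL against sham (SE 0.11, limma adjusted p = 0.00227) and was higher in norUDCA-fed CBDL than in CBDL by 0.42 (SE 0.11, limma adjusted p = 0.0459), a call that held in 4 of 14 alternatives. In CBDL against sham, C5ar2, the second C5a receptor, differed by -0.11 (limma adjusted p = 0.515) and Vsig4, a macrophage receptor for C3b, by 1.29 (limma adjusted p = 0.207). Vsig4 had 4.38, 7.06 and 3.87 on CBDL_164, CBDL_165 and CBDL_170, and only CBDL_165 lay above 5.2. Cd93, a membrane glycoprotein once described as a C1q receptor, rose by 0.79 in CBDL (limma adjusted p = 0.00119) and was higher in norUDCA-fed CBDL than in sham by 0.65 (limma adjusted p = 0.0203), though the norUDCA-fed CBDL call held in 11 of 15 alternatives (limma adjusted p up to 0.102).

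Among the genes of the terminal pathway, C6 and C7 rose in CBDL, C8a and C8g fell, and Hc (the gene of C5), C8b and C9 were not called in any comparison. C7, a component of the membrane attack complex, had 10.55, 10.46 and 10.61 in norUDCA-fed CBDL, 10.81, 10.76 and 10.90 in CBDL and 8.84, 8.98 and 8.26 in sham. It rose in CBDL by 2.13 (SE 0.17, limma adjusted p = 4.6e-05) and was higher in norUDCA-fed CBDL than in sham by 1.85 (SE 0.17, limma adjusted p = 0.000886), with -0.28 between the ligated groups (limma adjusted p = 0.437). C6 rose by 1.16 in CBDL. C8a, the alpha chain of C8, had 6.87, 7.08 and 7.02 in norUDCA-fed CBDL, 5.39, 4.69 and 6.35 in CBDL and 8.03, 8.55 and 8.29 in sham. It fell by 2.82 in CBDL (SE 0.33, limma adjusted p = 0.00032) and was higher in norUDCA-fed CBDL than in CBDL by 1.51 (SE 0.33, limma adjusted p = 0.0278). C8g, the gamma chain, fell by 1.86 in CBDL and was higher in norUDCA-fed CBDL than in CBDL by 0.69 (limma adjusted p = 0.0312). The C8a and C8g calls against CBDL held in 9 and 10 of 15 alternatives, with limma adjusted p up to 0.106 and 0.113. Both genes had the order of groups and of CBDL arrays of the proximal tubule marker mean. The part of those markers in the C8a and C8g values was not tested. Hc, C8b and C9 differed by 0.32, -0.07 and -0.12 in CBDL against sham (limma adjusted p = 0.198, 0.826 and 0.74). Over the 9 arrays Hc lay at 3.89 to 4.70 and C9 at 3.94 to 4.79, below 5.2, where signal above background is not shown. C8b lay near that level, at 5.09 to 5.73.

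Among regulators, Clu, which encodes the chaperone clusterin that binds terminal complexes, had 10.86, 10.62 and 10.80 in norUDCA-fed CBDL, 11.14, 11.25 and 11.10 in CBDL and 9.82, 9.74 and 9.74 in sham. It rose in CBDL by 1.40 (SE 0.10, limma adjusted p = 3.39e-05) and was lower in norUDCA-fed CBDL than in CBDL by a difference of -0.40 (limma adjusted p = 0.0408). The Clu call against CBDL held in 7 of 15 alternatives, with a limma adjusted p of up to 0.142. Cpn1, the carboxypeptidase N subunit that trims anaphylatoxins, rose by 1.50 in CBDL and was 1.79 higher in norUDCA-fed CBDL than in sham (limma adjusted p = 0.00126). Cfp, which encodes properdin, the stabiliser of the alternative convertase, rose by 1.20 in CBDL. The membrane inhibitors Cd55, Cd46 and Cd59a differed by -0.54, 0.33 and -0.20 in CBDL against sham and did not pass.

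Among lectin pathway genes and other collectins, Masp1, a mannose-binding lectin-associated protease gene, rose by 1.49 in CBDL. Colec12, a scavenger receptor collectin, rose by 1.80. Both were lower in norUDCA-fed CBDL than in CBDL, by differences of -1.12 (limma adjusted p = 0.0468) and -0.94 (limma adjusted p = 0.00794). The soluble lectins Mbl1, Mbl2 and Colec11 changed by -0.75, -0.49 and -0.39 in CBDL, and each of these calls ended in part of the alternatives, with adjusted p up to 0.0979, 0.133 and 0.141. Mbl2, at 4.71 to 5.55 over the 9 arrays, also lies among the dimmest 33.3% of genes. Of the 12 calls among the 45 genes in norUDCA-fed CBDL against CBDL, only those of Colec12 and Itgb2 held in every alternative. Masp1 kept its call in 6 of 15, Itgax in 9, C3ar1 and C5ar1 in 10 and Itgam in 12.

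**Figure D4:**
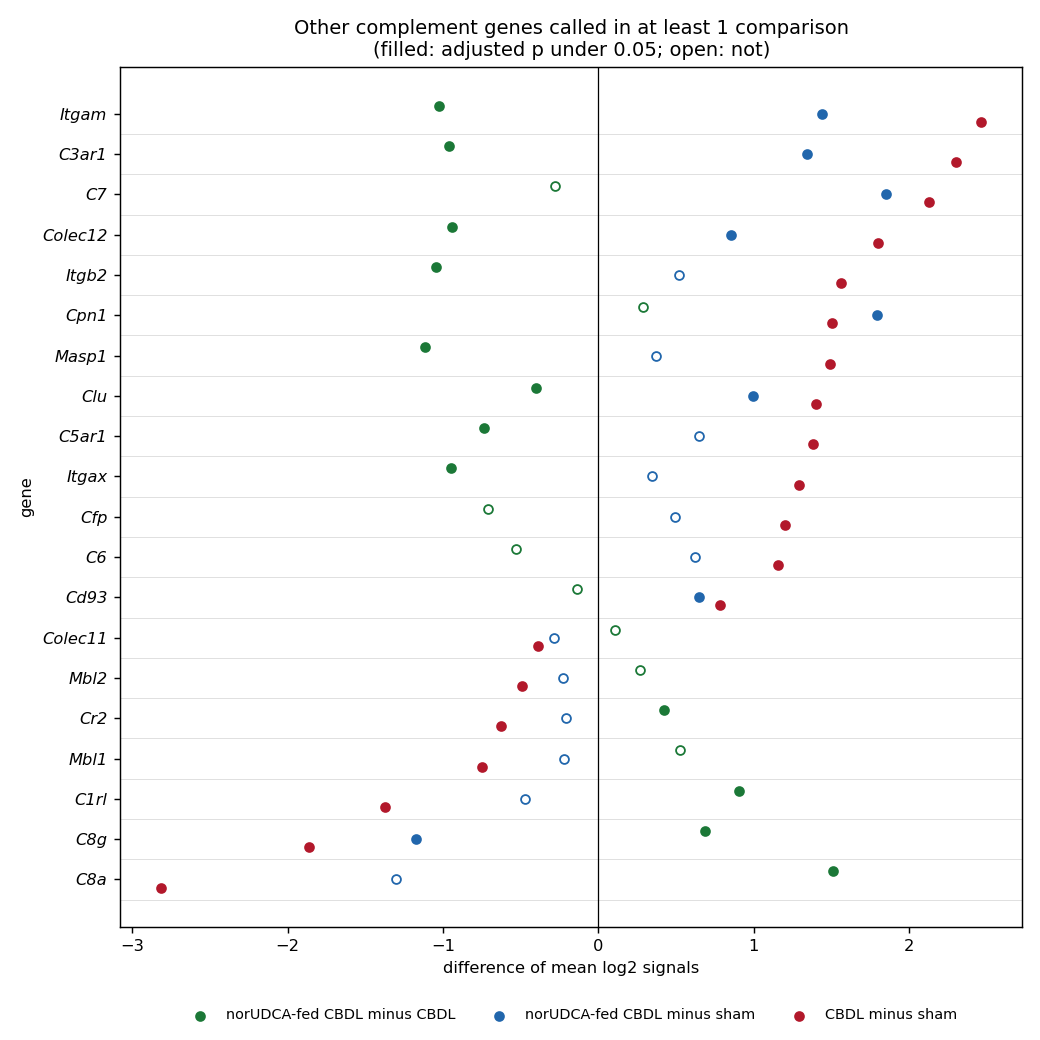
Difference of mean log2 signals for the 20 other complement genes called in at least 1 comparison, ordered by CBDL minus sham; filled points passed an adjusted p of 0.05 and open points did not (3 arrays a group). CBDL minus sham runs from Itgam at 2.46 to C8a at -2.82, and the filled points of norUDCA-fed CBDL minus CBDL are 8 below 0 and 4 above.

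Markers of other cell types were measured beside these genes. The liver markers were low, with a mean of 10 markers of 5.69 to 5.89 in norUDCA-fed CBDL, 5.46 to 5.66 in CBDL and 5.66 to 5.94 in sham. Of the 10, 3 fell in CBDL against sham: Alb, which encodes albumin, and Apoh, both by 1.52, and Itih1 by 1.05. Ahsg, Cps1, F2, Apoa1, Serpina1a and Tat were not called in any comparison. Fgb, a fibrinogen chain, was the liver marker that rose in CBDL, by 2.48 (limma adjusted p = 0.0264). All 8 fibroblast markers rose in CBDL against sham, with a mean signal of 8.38 to 8.59 in norUDCA-fed CBDL, 9.28 to 9.41 in CBDL and 7.29 to 7.85 in sham. The part of the fibroblast markers in the values of the C1q chains, Serping1, C4b and C7 was not tested. In CBDL against sham, 3 of 6 adipose and 4 of 8 neutrophil markers rose and 0 fell, and 1 of 6 endothelial markers (Kdr) fell.

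Outside the complement lists, the genes whose log2 signals followed the mean of the C1q chains most closely over the 9 arrays were Mrc1 (Pearson r = 0.996), Golm1 (0.995), Lilra5 (0.995), Mpeg1 (0.994) and Cd44 (0.994). For the mean of the other members, centred per gene, they were Lcn2 (Pearson r = 0.99), Tmem63a (0.988), Il33 (0.986), Dysf (0.984) and Cyp1b1 (0.984). The 9 points share 3 group means, so genes with the same order of groups score high, and these values are a description. Among the 9 members, C1qb and C1qc had r = 0.993 and C4b and Cfi had r = 0.97, while C1qa and Cfi had r = 0.779 over the same arrays.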

How the data were processed

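The authors deposited log2 signals, 1 per transcript cluster and array, made with RMA in Partek 6.6, per the submitters' processing notes. Per the labels' protocols, TRIzol-extracted RNA was labelled with an Affymetrix WT PLUS kit. The genome build is not given in the sources used here, nor are filters or batches. RMA compresses differences of dim genes, and precision is limited by having 3 arrays a group.

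Of 41345 rows, 23521 carried 1 gene symbol, 1814 several and 16010 none. The brightest single-symbol row was kept per gene, giving 22180 genes. limma 3.58.1 in R 4.3.3 fitted 1 mean per group over all 9 arrays, with Benjamini-Hochberg adjustment over all genes, two-sided, and was tested on simulated data. Each adjusted p comes from that fit; SD is over 3 arrays.

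All members were named. Of the other complement genes, those called and a short fixed set (with C2, C4a, C1rb, C1s2, Cd55, Cd46 and Cd59a) were named, with the uncalled receptor and terminal pathway genes added after their values were seen, and per profile the 5 genes of highest Pearson r. Members and lists were chosen with earlier results of these data known. Alternatives were an intensity trend, array weights, the 6 arrays compared, the dimmest 33.3% of genes left out, the mean of a gene's rows, quantile normalization and each array left out.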

Additional observations from a re-analysis of the deposited data

How the results depend on the processing

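The 9 members gave 27 differences, each under up to 15 alternatives, and 19 kept their call or lack of one throughout; the others are named in the report. With each array left out in turn, the members called numbered 6 to 7 in CBDL against sham, 1 to 5 in norUDCA-fed CBDL against CBDL and 3 to 6 in norUDCA-fed CBDL against sham. In norUDCA-fed CBDL against CBDL the count was 1 without CBDL_164 or norUDCA_CBDL_175 and 2 without CBDL_165, norUDCA_CBDL_172 or norUDCA_CBDL_179, and against sham it was 3 without norUDCA_CBDL_179. Over all genes the share called in norUDCA-fed CBDL against CBDL ran from 1.25% to 9.21% in the same fits. The other complement genes called numbered 17 to 20, 2 to 15 and 7 to 11 in the 3 comparisons (CBDL against sham, norUDCA-fed CBDL against CBDL, norUDCA-fed CBDL against sham), and 6 in norUDCA-fed CBDL against CBDL with only the 6 arrays compared, against 12 with all 9. Fits with fewer arrays estimate the spread from fewer samples. Quantile normalization moved no median over all genes by more than 0.03. C1s1 lies among the dimmest 33.3% of genes and has no value where those are left out. No paired analysis was possible because the groups share no replicate numbers.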
